A study of Lactuca sativa with 9 samples.

Results

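Leaves of lettuce (*Lactuca sativa*, cultivar Hong Kong Glass) grown at low light intensity (Las_WL, 60 µmol per square metre per second) were compared with leaves grown at medium light intensity (Las_ML, 175 µmol per square metre per second). The plants of both groups were 24 days old, and each library was made from mixed cut leaves of a separate biological replicate, with 3 libraries per group and 6 of the 9 libraries of the series in all. The remaining 3 libraries (Las_SL, 340 µmol per square metre per second) are quoted only where a value is set beside them. No genotype or chemical treatment distinguished the groups, which differed only in the light intensity named in the labels. Part of the study's text exchanges the intensities of Las_WL and Las_SL, and the assignment followed here, with Las_WL as the low intensity, is that of the labels, the methods and the figure legends. Genes with a mean FPKM (fragments per kilobase of transcript, scaled to the size of the library) of at least 0.5 over the 6 libraries were examined, which kept 25853 of the 35342 genes of the table. Where several loci carry a name, the values given are those of the most abundant locus. The genes were described by the description, GO term and KEGG pathway that the table assigns to them.

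Leaves acclimate to the light they receive. In plants in general, strong light favours photoprotective pigments such as anthocyanins and other flavonoids, which absorb excess light in the epidermis, whereas shade favours light capture by chlorophyll-binding antenna proteins and elongation of cells. Light also sets the supply of sugars and of reducing power for nitrate assimilation, so genes of carbon and nitrogen metabolism are commonly examined together with pigment genes.

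With all 6 libraries, no gene passed the adjusted threshold of the limma test (adjusted p under 0.05 with a log2 fold change of 1 or more in size), in either direction (0 higher and 0 lower of 25853, 0.0%). The smallest adjusted p was 0.0557, and 2426 genes had an unadjusted p below 0.05, of which 174 were higher and 2252 were lower in Las_WL. When the p was not adjusted (0.05 or less) and the same size of change was required, called here the unadjusted threshold, 54 genes were higher (0.209%) and 485 were lower (1.88%) in Las_WL. In 383 genes every Las_WL library was above every Las_ML library (1.48%), and in 4640 genes every Las_WL library was below every Las_ML library (17.9%). The median log2 fold change of all genes tested was -0.13. Quantile normalization moved that median to 0.02 and left 84 higher and 258 lower genes past the unadjusted threshold, so the size of the excess of lower genes depended on the scaling of the libraries.

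Las_WL replicate 1 stood apart from the other libraries. Its correlation with each of the others on log2(FPKM + 1) was between 0.783 and 0.892, and 4017 genes were at least 1 log2 unit above, and 2335 at least 1 log2 unit below, the mean of the other 5 libraries. In the other 5 libraries those numbers ranged from 299 to 714 above and from 151 to 1465 below. Without this library, 4 genes were higher (0.0155%) and 4 were lower (0.0155%) at the adjusted threshold, 134 were higher (0.518%) and 601 were lower (2.32%) at the unadjusted threshold, and the median log2 fold change of all genes tested was -0.26. Las_WL replicates 2 and 3 were both above every Las_ML library in 1536 genes (5.94%) and both below in 11522 genes (44.6%). Of the genes past the unadjusted threshold with all libraries, 38 of 54 higher and 283 of 485 lower genes were also past it without Las_WL replicate 1, and none of the 539 changed sign. A fit that weights the libraries by their scatter gave Las_WL replicate 1 a weight of 0.0935, against 0.874 to 3.34 for its group and 0.823 to 3.47 for Las_ML. Replicate 2 had the largest weight in each group. This fit called 50 genes higher (0.193%) and 311 lower (1.2%) at the adjusted threshold.

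**Figure D1:**
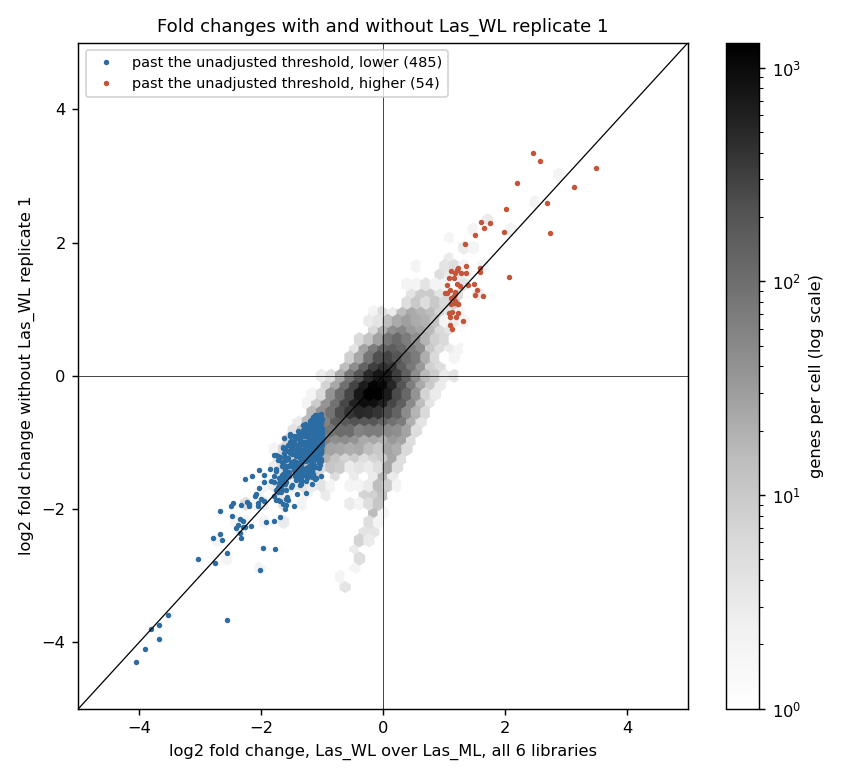
Log2 fold change of each tested gene (Las_WL over Las_ML, on log2(FPKM + 1)) with all 6 libraries on the x axis and without Las_WL replicate 1 on the y axis. Grey cells count genes on a log scale, blue points are the 485 lower and red points the 54 higher genes past the unadjusted threshold, and the line marks equal values. The coloured points stay on their side of 0 on both axes, and a tail of grey cells near 0 on the x axis reaches below -2 on the y axis.

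Of the gene lists, histones, ribosome and DNA replication had the highest medians in Las_WL replicate 1, as log2 difference from the Las_ML mean of each gene (1.76, 1.18 and 0.72). The median of the 249 cyclins and kinesins, also examined as genes of dividing cells, was only 0.09 in that library. Histones package newly replicated DNA, and their replication-dependent copies are transcribed in S phase. The 64 histone genes tested summed to 11716 FPKM in Las_WL replicate 1, to 1242 and 1061 FPKM in Las_WL replicates 2 and 3, and to 1366, 2631 and 2950 FPKM in Las_ML replicates 1, 2 and 3. Las_WL replicate 1 was the highest of the 6 libraries in 53 of the 64. For the core histone gene LOC111897059, chosen after its values were seen, the libraries had 689.6, 7.06 and 0.971 FPKM in Las_WL and 2.71, 93.5 and 123 FPKM in Las_ML. PCNA (LOC111916510, the sliding clamp of DNA polymerase, also chosen after its values were seen) had 134, 1.12 and 0.448 FPKM in Las_WL and 0.889, 20.3 and 23.3 FPKM in Las_ML. Both groups thus held libraries with high and with low levels of these genes, and the order of the libraries was the same for both. Near-identical histone copies may share reads, so the sum is more secure than the level of a single copy.

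The same split was seen in the 121 genes of the DNA replication list, which summed to 2300, 581 and 605 FPKM in Las_WL and to 674, 917 and 1006 FPKM in Las_ML, and in the 442 ribosome genes, which summed to 70871, 26054 and 21964 FPKM in Las_WL and to 25255, 33014 and 37236 FPKM in Las_ML. No histone gene passed the unadjusted threshold, against 0.209% higher and 1.88% lower of all genes tested, so the count says little about a list of 64. Their median log2 fold change was -0.07 with all libraries, -0.62 without Las_WL replicate 1 and 0.04 after quantile normalization. That of the ribosome genes was 0.10, -0.46 and 0.15 under the same 3 settings. The part of these genes in the results that follow was not tested. In bulk leaf tissue a smaller share of dividing cells and less of these transcripts per cell cannot be told apart.

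**Figure D2:**
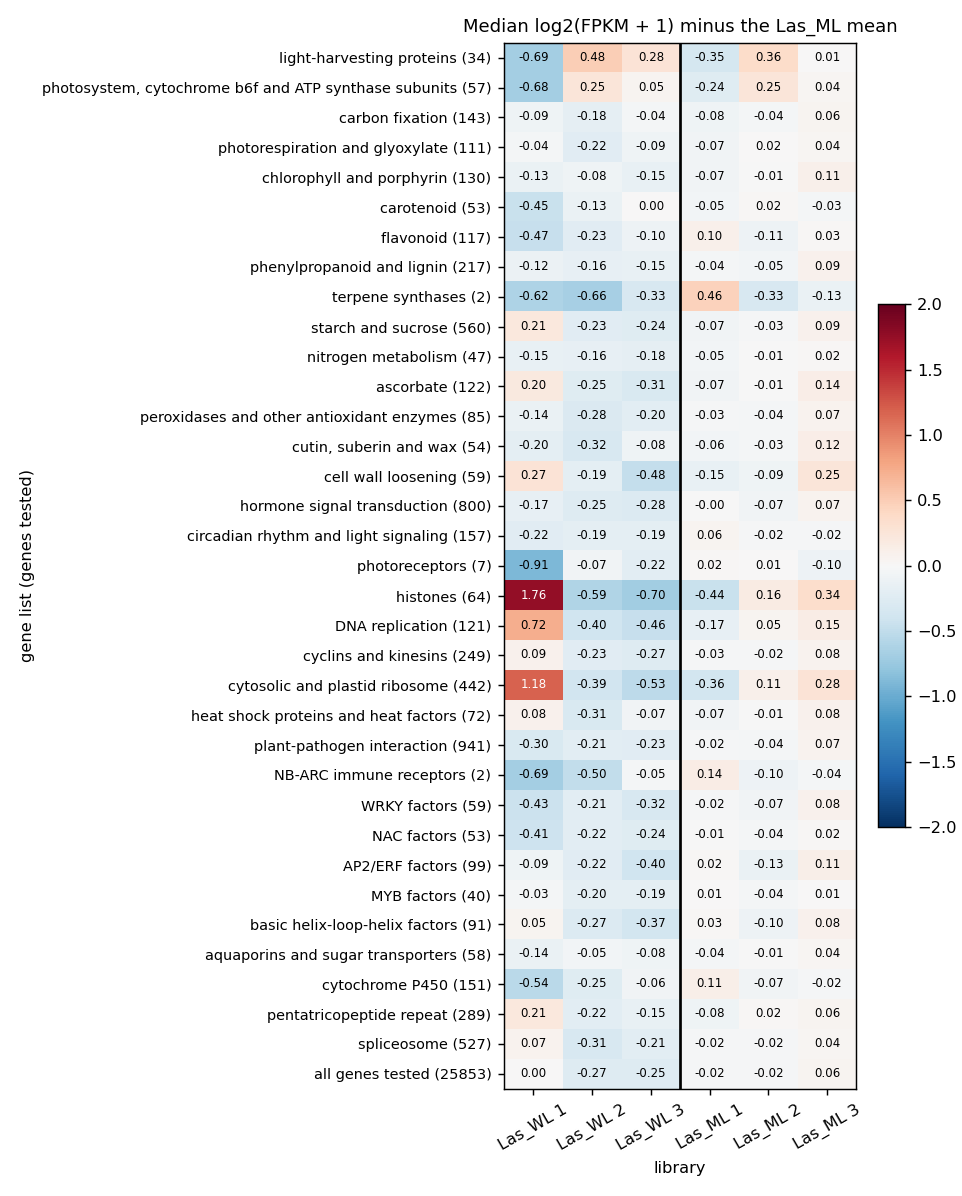
Median over the tested members of each gene list (number in parentheses) of log2(FPKM + 1) minus the Las_ML mean of the same gene, by library, with Las_WL on the left and Las_ML on the right of the line. Red is above and blue below the Las_ML mean. Histones (1.76), ribosome (1.18) and DNA replication (0.72) are highest in Las_WL replicate 1, where photoreceptors (-0.91), light-harvesting proteins (-0.69) and photosystem subunits (-0.68) lie below the Las_ML mean.

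Photosynthesis genes were abundant in all libraries. The Rubisco small subunit gene LOC111917913, whose product is part of the enzyme that fixes CO2, had 4901, 17316 and 14648 FPKM in Las_WL and 10224, 14811 and 10711 FPKM in Las_ML. Rubisco activase (LOC111910617, chosen after its values were seen), which removes inhibitory sugar phosphates from Rubisco, had 1380, 6026 and 6306 FPKM in Las_WL and 4178, 5586 and 3726 FPKM in Las_ML. In both genes Las_WL replicate 1 was the lowest of the 6 libraries and the groups overlapped.

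The 34 light-harvesting genes, which encode the chlorophyll-binding antenna, summed to 12634, 31420 and 24643 FPKM in Las_WL and to 15671, 27562 and 21392 FPKM in Las_ML. The most abundant antenna locus, which carries the names LOC111888054 and LOC111888053, had 1119, 3245 and 2237 FPKM in Las_WL and 1500, 2729 and 2028 FPKM in Las_ML. No antenna gene passed the unadjusted threshold, against 0.209% higher and 1.88% lower of all genes tested. At these shares, 0 of 34 says little about the list. None had groups that did not overlap, against 1.48% above and 17.9% below of all genes tested. Their median log2 fold change was 0.03 with all libraries, 0.41 without Las_WL replicate 1, and between -0.15 and 0.21 when another library was left out. The 57 genes of photosystem, cytochrome b6f and ATP synthase subunits had a median of -0.10 with all libraries, 0.15 without Las_WL replicate 1 and -0.11 after quantile normalization. None of them passed the unadjusted threshold, which at the shares of all genes tested again says little. PsbR (LOC111884730), a subunit of photosystem II, had 1312, 3681 and 3232 FPKM in Las_WL and 3588, 4451 and 3499 FPKM in Las_ML.

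Low values relative to Las_ML were found in the anthocyanin branch of flavonoid synthesis. Chalcone synthase condenses coumaroyl-CoA with malonyl-CoA and is the entry point of the branch, and LOC111882072 had the higher mean of its 2 genes. It had 18.7, 4.37 and 31.1 FPKM in Las_WL and 391, 125 and 229.8 FPKM in Las_ML. Every Las_WL library was below every Las_ML library, and the Las_WL mean of 18.0 ± 13.4 FPKM was 7.26% of the Las_ML mean of 248.5 ± 134.2 FPKM (SD, n = 3 each). The log2 fold change was -3.90 (SE 0.74, limma adjusted p = 0.442) with all libraries and -4.10 without Las_WL replicate 1. In Las_SL the gene had 257, 165 and 222 FPKM, within the range of Las_ML.

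Dihydroflavonol 4-reductase, which reduces dihydroflavonols to the precursors of anthocyanidins, was represented by 5 genes with this KEGG assignment, and LOC111897350 was the only 1 of them past the unadjusted threshold. Its values were 12.2, 2.54 and 16.7 FPKM in Las_WL and 329, 76.1 and 147 FPKM in Las_ML, a log2 fold change of -4.05 (SE 0.77, limma adjusted p = 0.442). A glutathione S-transferase gene, LOC111880263, had 14.2, 2.92 and 17.9 FPKM in Las_WL and 219, 84.6 and 124 FPKM in Las_ML, a log2 fold change of -3.68 (SE 0.67, limma adjusted p = 0.442). Glutathione S-transferases of a particular clade carry anthocyanins to the vacuole in Arabidopsis and maize, and whether this gene belongs to that clade was not tested. These 3 genes kept the same order of libraries, with replicate 2 the lowest of its group in both Las_WL and Las_ML. With the weighted libraries all 3 were called, at adjusted limma p-values of 0.0332 for chalcone synthase, 0.0338 for the reductase and 0.0272 for the transferase. In that fit replicate 2 carried the largest weight of each group (3.34 in Las_WL and 3.47 in Las_ML), so these calls rest largely on it. LOC111897350 and LOC111880263 were chosen after their values were seen.

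Other steps of the branch were less far apart. Flavanone 3-hydroxylase LOC111897600, which follows chalcone isomerase in the pathway, had 47.2, 28.1 and 46.7 FPKM in Las_WL and 125, 51.2 and 104 FPKM in Las_ML, a log2 fold change of -1.12 (SE 0.40). The locus LOC111913258 and LOC111913293, the only 1 assigned to anthocyanidin synthase, was weakly expressed at 0.452, 0.690 and 1.78 FPKM in Las_WL and 4.13, 2.36 and 5.02 FPKM in Las_ML. In both genes the groups did not overlap. Chalcone isomerase LOC111895243, which closes the chalcone ring, had 20.9, 12.9 and 15.8 FPKM in Las_WL and 25.8, 17.6 and 38.0 FPKM in Las_ML, and here the groups overlapped. So did those of the second chalcone synthase gene, LOC111883451, at 62.5, 28.9 and 26.4 FPKM in Las_WL and 31.0, 36.2 and 116 FPKM in Las_ML. Of the loci of the other steps, none of the 9 flavonoid 3'-hydroxylase genes passed the unadjusted threshold, and 3 of the 23 loci assigned to flavonol synthase were past it, all lower.

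Some genes of the steps that supply the branch had higher values in Las_WL. Cinnamate 4-hydroxylase, the second enzyme of the phenylpropanoid pathway, is encoded here by LOC111886666, with 80.3, 50.5 and 155 FPKM in Las_WL and 43.6, 27.0 and 43.6 FPKM in Las_ML, and by LOC111876528, with 155, 74.9 and 235 FPKM in Las_WL and 62.1, 67.1 and 101 FPKM in Las_ML. The first was past the unadjusted threshold at a log2 fold change of 1.18 (SE 0.44, limma adjusted p = 0.502), and the second was at 0.89 (SE 0.45), with overlapping groups. Phenylalanine ammonia-lyase, which opens the pathway, was measured in 4 genes. The most abundant, LOC111893052, had 406, 951 and 1089 FPKM in Las_WL and 366, 365 and 554 FPKM in Las_ML. Its log2 fold change was 0.83 (SE 0.46), and 1.28 without Las_WL replicate 1. LOC111916376 and LOC111916377 were at 0.94 and 0.86, and LOC111894107 at -0.44. The 8 genes assigned to 4-coumarate-CoA ligase, which activates coumarate for the branch, lay on both sides, with a median of 0.02 and none past the unadjusted threshold. LOC111914848 had 34.9, 22.5 and 37.6 FPKM in Las_WL and 15.3, 16.4 and 24.1 FPKM in Las_ML, a log2 fold change of 0.73 (SE 0.28), and its groups overlapped. LOC111893021, described as 4-coumarate-CoA ligase-like, had 15.1, 13.7 and 15.4 FPKM in Las_WL and 24.6, 20.9 and 23.1 FPKM in Las_ML, a log2 fold change of -0.60, and every Las_WL library was below every Las_ML library. Among the genes of these 3 enzymes, LOC111886666 alone passed the unadjusted threshold. Genes of this route were taken by their KEGG assignment after values were seen.

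**Figure D3:**
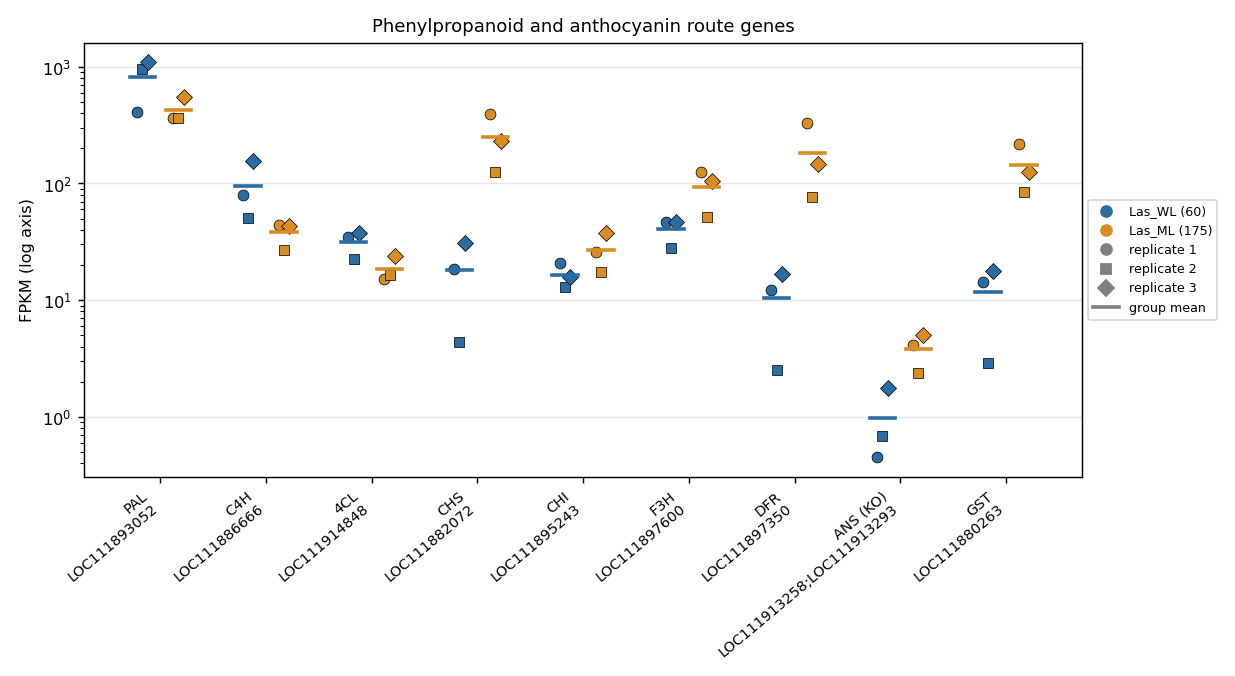
FPKM on a log axis of genes in pathway order, with Las_WL in blue to the left and Las_ML in orange to the right of each position. Symbols mark replicates 1 to 3 and bars the group means. The Las_WL mean lies above the Las_ML mean for the single genes shown of phenylalanine ammonia-lyase (PAL), cinnamate 4-hydroxylase (C4H) and 4-coumarate-CoA ligase (4CL). Other genes of PAL and 4CL, not shown, had log2 fold changes below 0. Every Las_WL point lies below every Las_ML point for chalcone synthase (CHS), flavanone 3-hydroxylase (F3H), dihydroflavonol 4-reductase (DFR), the locus assigned to anthocyanidin synthase (ANS) and the glutathione S-transferase (GST).

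Across the 117 tested genes of the flavonoid list, 8 were lower (6.84%) and 1 was higher (0.855%) at the unadjusted threshold, against 1.88% and 0.209% of all genes tested. The median of the list was -0.15, against -0.13 for all genes tested, and 0.01 after quantile normalization, against 0.02. The median of the list thus lay close to that of all genes tested. The wider phenylpropanoid and lignin list held 10 lower and 3 higher of 217 genes, with a median of -0.07 (0.07 after quantile normalization). Its most abundant member, LOC111891035, which is described as a hypothetical protein and carries the KEGG assignment of peroxidase, had 348, 863 and 1131 FPKM in Las_WL and 2462, 1397 and 1544 FPKM in Las_ML.

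Nitrate assimilation held genes with higher and genes with lower values in Las_WL. In the 37 tested genes of this GO term, 3 were higher (8.11%) and 2 were lower (5.41%) at the unadjusted threshold, against 0.209% and 1.88% of all genes tested, and in 10 every Las_WL library was below every Las_ML library (27.0%, against 17.9%). The median was -0.23. Nitrate reductase reduces nitrate to nitrite in the cytosol, and nitrite reductase reduces nitrite to ammonium in the chloroplast. The nitrite reductase gene LOC111897687 had 23.5, 94.0 and 111 FPKM in Las_WL and 19.6, 24.1 and 16.6 FPKM in Las_ML, a log2 fold change of 1.61 (SE 0.59, limma adjusted p = 0.495). Las_WL replicates 2 and 3 were above all Las_ML libraries and replicate 1 lay among them, so the fold change without replicate 1 was 2.30 (limma adjusted p = 0.0720). The other gene with this KEGG assignment, LOC111895603, had 7.31, 25.2 and 31.0 FPKM in Las_WL and 5.14, 6.85 and 5.22 FPKM in Las_ML. Its groups did not overlap, and its log2 fold change was 1.51 (SE 0.52), or 2.11 without replicate 1. With the weighted libraries both were called, at adjusted limma p-values of 0.0199 and 0.0185. That fit gave Las_WL replicate 1, the Las_WL library nearest to Las_ML in both genes, a weight of only 0.0935. These calls thus rest largely on the other Las_WL libraries.

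The abundant nitrate reductase gene LOC111893654 had 110.5, 466 and 693 FPKM in Las_WL and 188, 221 and 119 FPKM in Las_ML. Its groups overlapped because Las_WL replicate 1 was the lowest of the 6 libraries, and its log2 fold change was 0.95 (SE 0.71) with all libraries and 1.73 without that library. A weaker nitrate reductase gene, LOC111902813, had 0.822, 1.58 and 3.70 FPKM in Las_WL and 0.421, 0.503 and 0.171 FPKM in Las_ML, with groups that did not overlap. LOC111897754, described by similarity to a nitrate transporter of the high-affinity NRT2 family of another plant, had 0.0462, 1.57 and 3.93 FPKM in Las_WL and 0.187, 0.631 and 0.0874 FPKM in Las_ML. In these 5 genes, which were picked for their higher values, Las_WL replicate 3 was the highest of the 6 libraries, and Las_WL replicate 1, which had the highest histone sum, was the lowest of its group. Within Las_WL the histone sums stood in the opposite order, and their part in this result was not tested.

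Other loci with the same assignments lay on the other side of 0. The second NRT2-type transporter gene, LOC111910637, had 1.43, 1.89 and 5.51 FPKM in Las_WL and 4.66, 4.19 and 4.78 FPKM in Las_ML, a log2 fold change of -0.63. The 14 loci with the KEGG assignment of nitrate reductase, most of them described as cytochrome b5 proteins, had a median of -0.08, with 1 higher and 1 lower at the unadjusted threshold. The lower one, LOC111895919, had 0.0725, 0.458 and 0 FPKM in Las_WL and 2.28, 1.13 and 1.01 FPKM in Las_ML, and LOC111888889 had 1.86, 4.28 and 3.79 FPKM in Las_WL and 8.60, 6.47 and 7.05 FPKM in Las_ML. Both are described as cytochrome b5 heme-binding proteins, and in both the groups did not overlap. Ferredoxin-dependent glutamate synthase, which passes the assimilated nitrogen to glutamate, had a log2 fold change of -0.04 in its single tested gene (LOC111891706). The 6 glutamine synthetase genes had a median of -0.41, and none passed the unadjusted threshold. NRT1/PTR FAMILY 7.3 (LOC111907361), whose Arabidopsis counterpart loads nitrate and potassium into the xylem, had 11.6, 14.9 and 40.3 FPKM in Las_WL and 79.4, 78.9 and 86.4 FPKM in Las_ML, a log2 fold change of -2.03 (SE 0.45, limma adjusted p = 0.442). Of the 47 genes of the nitrogen metabolism list, 3 were higher (6.38%, against 0.209% of all genes tested) at the unadjusted threshold. These are the same 3 genes as in the GO term nitrate assimilation, so they are not a separate result. In the list 1 gene was lower (2.13%, near the 1.88% of all genes tested), and the median was -0.07. Without Las_WL replicate 1 the numbers were 5 higher and 0 lower, against 0.518% and 2.32% of all genes tested. The most abundant member of the list, carbonic anhydrase 3 (LOC111920498), had 230.1, 779 and 803 FPKM in Las_WL and 159.7, 679 and 367 FPKM in Las_ML. The nitrate genes named here were chosen after their values were seen, apart from this carbonic anhydrase.

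Aquaporins, the membrane channels for water and small solutes, were found on both sides. Of the 43 genes of the GO term water channel activity, 3 were higher (6.98%) and 1 was lower (2.33%) at the unadjusted threshold, against 0.209% and 1.88% of all genes tested. Their median was 0.21, against -0.13 for all genes tested. Without Las_WL replicate 1, 8 were higher and 1 was lower, against 0.518% and 2.32%, and the median was 0.10, against -0.26. LOC111893041 had 1.27, 8.66 and 20.6 FPKM in Las_WL and 0.373, 0.835 and 0.138 FPKM in Las_ML, a log2 fold change of 2.45 (SE 0.79, limma adjusted p = 0.462). LOC111909461, a TIP1-3-like aquaporin of the tonoplast type, had 4.73, 2.63 and 6.80 FPKM in Las_WL and 2.12, 1.63 and 0.949 FPKM in Las_ML. LOC111907394 had 4.32, 3.77 and 7.92 FPKM in Las_WL and 28.8, 10.9 and 21.4 FPKM in Las_ML. In all 3 the groups did not overlap. A further aquaporin past the unadjusted threshold, LOC111916391, had 30.6, 44.9 and 113.6 FPKM in Las_WL and 20.7, 30.9 and 18.0 FPKM in Las_ML, with overlapping groups. The most abundant aquaporin, LOC111900815, had 1689, 969.8 and 759.6 FPKM in Las_WL and 589, 781 and 1114 FPKM in Las_ML and its groups overlapped. Sugar transporters past the unadjusted threshold were all lower: the SWEET sugar exporters LOC111876948 and LOC111895338 and the ERD6-like sugar transporters LOC111876383 and LOC111917622, with log2 fold changes between -1.10 and -1.03. In the combined list of 58 aquaporins and sugar transporters 3 were higher (5.17%, against 0.209% of all genes tested) and 5 were lower (8.62%, against 1.88%), with a median of -0.003 and of 0.09 after quantile normalization.

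**Figure D4:**
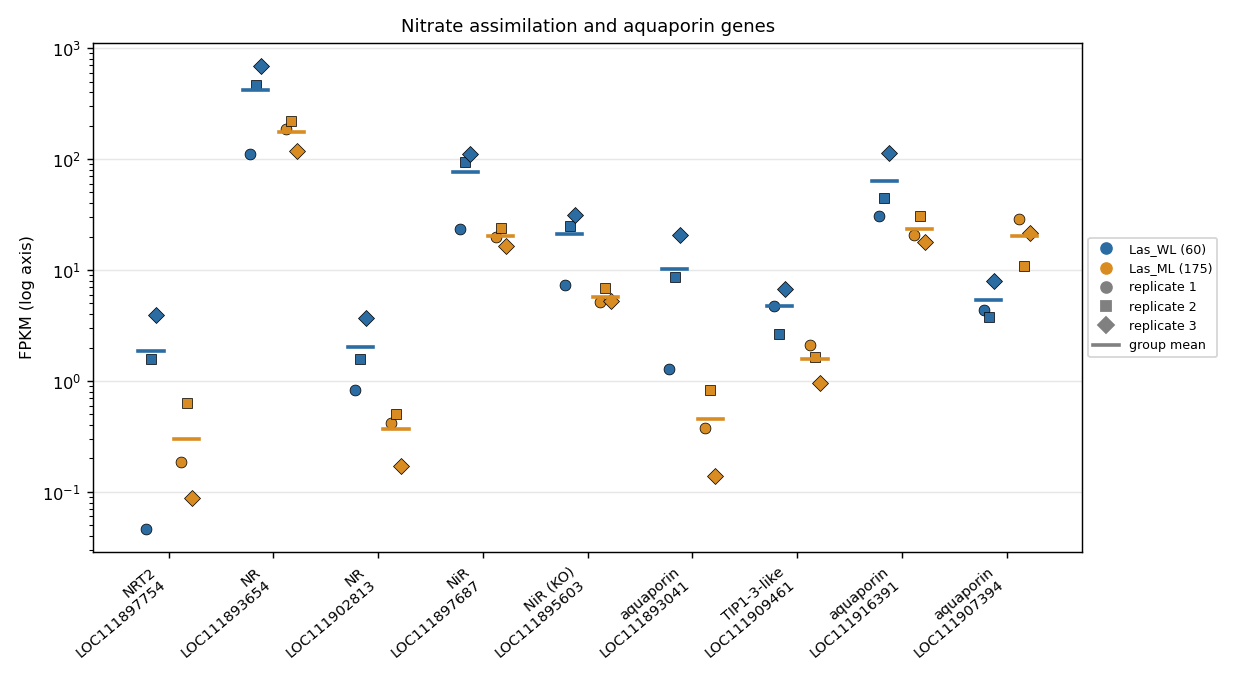
FPKM on a log axis of genes of nitrate uptake and reduction and of 4 aquaporins, with Las_WL in blue to the left and Las_ML in orange to the right of each position. Symbols mark replicates 1 to 3 and bars the group means. For nitrate reductase (NR) and nitrite reductase (NiR) the circle of Las_WL replicate 1 is the lowest point of its group in each gene, and only the last aquaporin, LOC111907394, has all Las_WL points below Las_ML.

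Genes acting on the cell wall were lower in a small subset. Xyloglucan endotransglucosylase/hydrolases cut and rejoin xyloglucan chains between cellulose microfibrils. LOC111883949 of this family had 0.848, 0.482 and 0.505 FPKM in Las_WL and 5.43, 7.56 and 8.61 FPKM in Las_ML, a log2 fold change of -2.33 (SE 0.22, limma adjusted p = 0.208). The more abundant LOC111905140 had 17.3, 27.0 and 23.4 FPKM in Las_WL and 83.3, 61.1 and 82.0 FPKM in Las_ML, a log2 fold change of -1.71 (SE 0.24, limma adjusted p = 0.376), and 34.8, 34.5 and 34.6 FPKM in Las_SL. The groups were well separated in both genes, with little scatter among the Las_WL libraries. Pectinesterases remove methyl groups from pectin, and LOC111906885, a pectinesterase and inhibitor in 1 protein and the most abundant member of the list, had 62.9, 189 and 226 FPKM in Las_WL and 348, 397 and 366 FPKM in Las_ML. Its log2 fold change was -1.40 with all libraries and -0.84 without Las_WL replicate 1. Of 59 genes of the list, 6 were lower (10.2%, against 1.88% of all genes tested) and 0 were higher at the unadjusted threshold, while 11 were below Las_ML in every library (18.6%, near the 17.9% of all genes tested). The median was -0.01 with all libraries, -0.29 without Las_WL replicate 1 and 0.14 after quantile normalization. The GO term xyloglucan metabolic process had 4 lower of 24 genes. Wall genes outside the list also included higher ones. The GO term polygalacturonase activity had 1 higher (LOC111897181) and 0 lower of 24 genes. The GO term of cell wall modification in multidimensional cell growth had 1 higher (LOC111893307) and 1 lower of 21 genes. Its median was 0.35 with all libraries and -0.30 without Las_WL replicate 1.

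In the list of hormone signal transduction, all members past the unadjusted threshold were lower (28 of 800, 3.50%, against 1.88% of all genes tested). Some of them are also counted in other lists, such as LOC111883949 and LOC111905140 under the cell wall and LOC111917268 and LOC111905844 under AP2/ERF factors. The lists are thus not separate results. The median of the hormone list was -0.21, and -0.06 after quantile normalization. Without Las_WL replicate 1, 3 of its genes were higher and 35 were lower. Hormone genes outside the list also included a higher one. LOC111877664, with the KEGG assignment of abscisic acid 8'-hydroxylase, was past the unadjusted threshold at a log2 fold change of 1.26. LOC111898244 and LOC111879857, described as polyketide cyclases, carry the KEGG assignment of the PYR/PYL receptors of abscisic acid, the drought hormone. LOC111898244 had 17.7, 36.9 and 39.9 FPKM in Las_WL and 123, 111 and 121 FPKM in Las_ML, a log2 fold change of -1.96 (SE 0.33, limma adjusted p = 0.427). LOC111879857 had 8.39, 8.88 and 5.21 FPKM in Las_WL and 31.7, 27.6 and 54.3 FPKM in Las_ML. Both had groups that did not overlap, and 3 of the 18 loci with this assignment were past the unadjusted threshold, all lower. Without Las_WL replicate 1, 2 of the 18 were higher and 3 were lower, against 0.518% and 2.32% of all genes tested.

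Gibberellin 20-oxidase produces the direct precursors of active gibberellins, which promote stem and leaf elongation. LOC111901681 of this enzyme had 3.31, 1.04 and 1.53 FPKM in Las_WL and 7.05, 3.46 and 7.69 FPKM in Las_ML, a log2 fold change of -1.27 (SE 0.38). The gibberellin 2-oxidase assignment, given to enzymes that inactivate gibberellins, included LOC111875983, with 1.33, 2.29 and 5.86 FPKM in Las_WL and 9.81, 7.22 and 6.73 FPKM in Las_ML. Enzymes of synthesis and of inactivation were thus both represented among the lower genes. These hormone genes were chosen after their values were seen.

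AP2/ERF factors, many of which act in ethylene and stress responses, had 10 lower of 99 tested genes (10.1%, against 1.88% of all genes tested) and none higher at the unadjusted threshold. The most abundant, LOC111917268, had 104, 284 and 344 FPKM in Las_WL and 814, 727 and 636 FPKM in Las_ML, a log2 fold change of -1.73 (SE 0.49, limma adjusted p = 0.450) and of -1.20 without Las_WL replicate 1. LOC111905844 had 25.6, 43.0 and 62.4 FPKM in Las_WL and 150.5, 119.7 and 110.2 FPKM in Las_ML. Neither gene had overlapping groups, and in both Las_WL replicate 1 was the lowest. The median of the list was -0.18, and -0.02 after quantile normalization.

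WRKY factors, which act in defence and senescence, had 3 lower of 59 genes (5.08%, against 1.88% of all genes tested). The most abundant, LOC111910665, had 77.6, 83.5 and 58.2 FPKM in Las_WL and 145, 126 and 191 FPKM in Las_ML, a log2 fold change of -1.06 (SE 0.25, limma adjusted p = 0.445). Every Las_WL library was below every Las_ML library in 18 of the 59 genes (30.5%), against 17.9% of all genes tested. MYB factors had 3 lower of 40 genes (7.50%), NAC proteins 2 of 53 (3.77%) and basic helix-loop-helix factors 2 of 91 (2.20%), with none higher, against 1.88% lower of all genes tested, so that the share of the last family was near that of all genes. The NAC list also took in the nascent polypeptide-associated complex, whose name shares the abbreviation.

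The list of porphyrin and chlorophyll metabolism had the highest share of lower genes among lists of at least 20 tested members, 15 of 130 (11.5%), with none higher, against 1.88% lower of all genes tested. Most of these members were not enzymes of chlorophyll synthesis by their descriptions, although 9 carried the KEGG assignment of heme A synthase (K02259) and 5 that of protochlorophyllide reductase (K00218). They included 5 homeodomain-like proteins and 2 MYB factors, 3 short-chain dehydrogenases of the TIC 32 type, a type that is part of the protein import machinery of the chloroplast in pea, and 2 glucose/ribitol dehydrogenases. LOC111894375 and LOC111909458 were also counted among the lower genes of the MYB list. LOC111880252, a homeodomain-like protein, had 43.8, 32.2 and 28.3 FPKM in Las_WL and 72.8, 85.7 and 112 FPKM in Las_ML. LOC111901128, of the TIC 32 type, had 9.11, 6.71 and 23.4 FPKM in Las_WL and 92.3, 48.5 and 57.3 FPKM in Las_ML, a log2 fold change of -2.38 (SE 0.48, limma adjusted p = 0.442). The most abundant member, LOC111909735, described as an aromatic-ring hydroxylase, had 520.0, 924 and 851 FPKM in Las_WL and 414, 692 and 564 FPKM in Las_ML and was not past the threshold. The median of the list was -0.06, and 0.06 after quantile normalization.

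**Figure D5:**
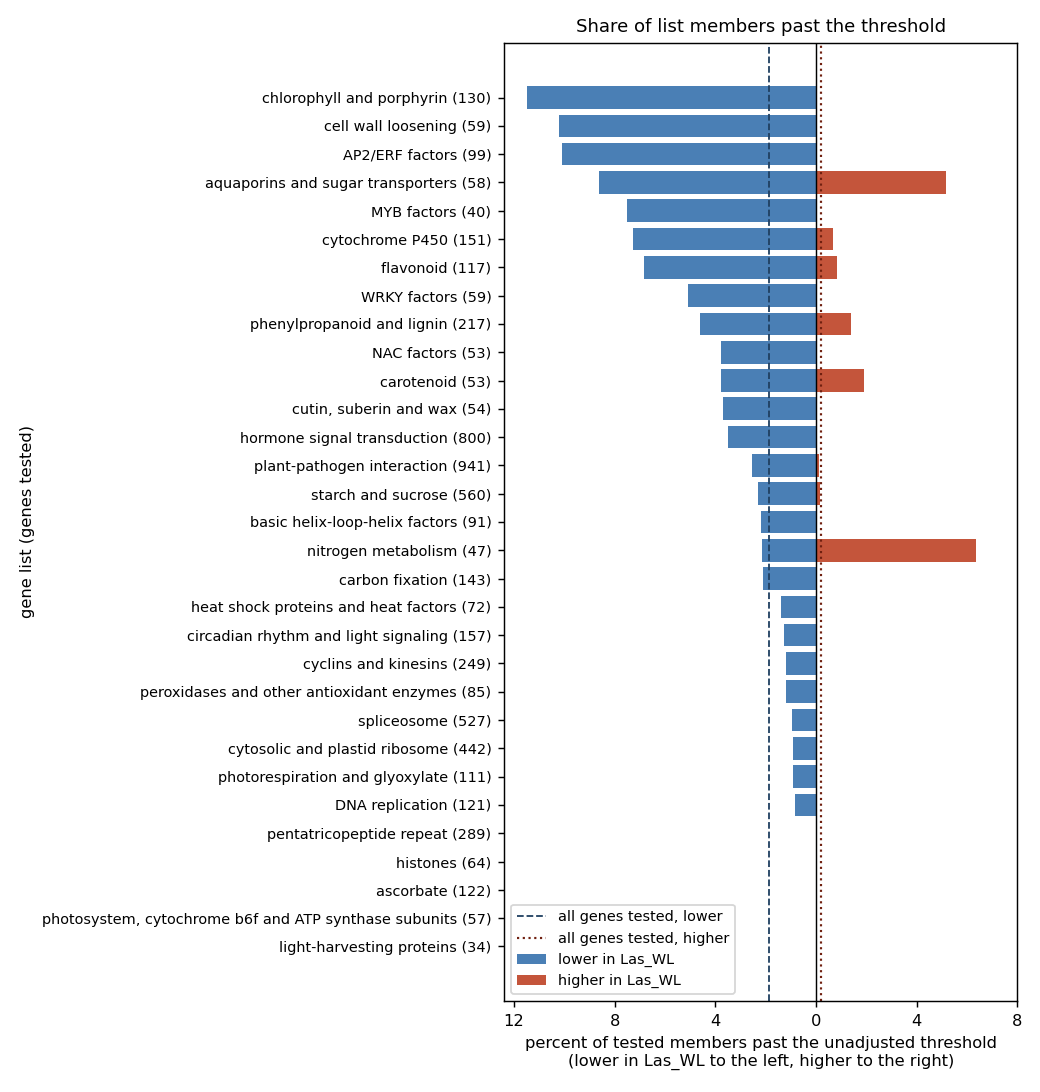
Percent of the tested members (number in parentheses) of each gene list with at least 20 members that were past the unadjusted threshold, lower in Las_WL to the left and higher to the right. The dashed and dotted lines mark the shares of all genes tested, 1.88% lower and 0.209% higher. Chlorophyll and porphyrin (11.5%), cell wall loosening (10.2%) and AP2/ERF factors (10.1%) reach farthest to the left, and nitrogen metabolism (6.38%) and aquaporins and sugar transporters (5.17%) farthest to the right.

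The single genes with the smallest p-values were mostly weakly or moderately expressed. Proline dehydrogenase LOC111896317, which starts the breakdown of proline in mitochondria, had 1.64, 2.26 and 3.46 FPKM in Las_WL and 18.3, 18.6 and 23.7 FPKM in Las_ML. Its Las_WL mean of 2.45 ± 0.926 FPKM was 12.1% of the Las_ML mean of 20.2 ± 3.04 FPKM (SD, n = 3 each), and the log2 fold change was -2.65 (SE 0.25, limma adjusted p = 0.208). The groups did not overlap, and leaving out Las_WL replicate 1 gave -2.47. The second proline dehydrogenase gene, LOC111876666, was at 0.64, and the 4 genes assigned to proline synthesis (P5CS) lay between 0.11 and 0.58. None of these was past the unadjusted threshold.

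Salicylic acid carboxyl methyltransferase LOC111906000, an enzyme that makes the volatile methyl salicylate, had 2.54, 3.0 and 2.86 FPKM in Las_WL and 8.41, 9.14 and 11.04 FPKM in Las_ML, a log2 fold change of -1.46 (SE 0.17, limma adjusted p = 0.317). A further pair of genes was listed at 0 in all Las_WL libraries. LOC111886160, described as an Argonaute/Dicer PAZ protein but with the KEGG assignment of beta-glucosidase, had 2.58, 1.80 and 1.72 FPKM in Las_ML but also 2.73, 0 and 0 FPKM in Las_SL. LOC111912843, a subunit homologue of the TRAPPII vesicle tethering complex, had 1.29, 1.21 and 1.28 FPKM in Las_ML and 0, 1.13 and 0 FPKM in Las_SL. Both genes were thus present in some and listed at 0 in other libraries of a single group.

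On the higher side, LOC111877722, a hypothetical protein, had 3.48, 3.88 and 2.71 FPKM in Las_WL and 0.406, 0.365 and 0.574 FPKM in Las_ML, a log2 fold change of 1.58 (SE 0.18, limma adjusted p = 0.317). LOC111887027, a lateral organ boundaries domain protein, belongs to a family of plant transcription factors that act in organ development and nitrogen signalling. It had 10.4, 14.5 and 10.9 FPKM in Las_WL and 5.35, 4.42 and 4.35 FPKM in Las_ML, a log2 fold change of 1.17 (SE 0.19). LOC111877664, a cytochrome P450 with the KEGG assignment of abscisic acid 8'-hydroxylase, which inactivates abscisic acid, had 6.23, 6.24 and 9.19 FPKM in Las_WL and 2.28, 3.54 and 1.60 FPKM in Las_ML. LOC111878868 (a DUF506 protein) and the protein kinase LOC111912469 were at log2 fold changes of 1.23 and 1.09. All 5 had groups that did not overlap, none was called with the unweighted libraries, and 4 of them, all but LOC111877664, were called with the weighted ones.

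Without Las_WL replicate 1, the 8 genes past the adjusted threshold were LOC111904218, MSTRG.20536, MSTRG.27107 and MSTRG.27108, which were higher, and LOC111890960, MSTRG.277, MSTRG.13942 and MSTRG.21927, which were lower. LOC111904218, also a lateral organ boundaries domain protein, had 1.74, 12.5 and 9.21 FPKM in Las_WL and 0.630, 0.615 and 0.522 FPKM in Las_ML, a log2 fold change of 2.89 without replicate 1 (limma adjusted p = 0.0236) and of 2.19 with it (limma adjusted p = 0.448). LOC111890960, an uncharacterized protein, had 29.0, 1.83 and 2.23 FPKM in Las_WL and 39.0, 35.9 and 36.9 FPKM in Las_ML, so that replicate 1 lay near Las_ML. The loci named MSTRG carry no gene description in the table. MSTRG.13942 had 1.82, 1.99 and 1.95 FPKM in Las_WL and 13.4, 12.4 and 14.2 FPKM in Las_ML, and its log2 fold change with all libraries was -2.29 (limma adjusted p = 0.0557). MSTRG.20536 had 6.33, 4.87 and 5.18 FPKM in Las_WL and was listed at 0 in all 3 Las_ML libraries, but had 5.66, 9.25 and 0 FPKM in Las_SL. Its adjusted limma p with all libraries was also 0.0557.

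Of each gene list the most abundant member was also examined, which gave 31 loci. In 10 of them every Las_WL library was below every Las_ML library, against 17.9% of all genes tested, 7 were past the unadjusted threshold, all lower, against 1.88% of all genes tested, and in the other 21 the groups overlapped. A cytochrome P450, LOC111902705, had 32.9, 77.0 and 59.4 FPKM in Las_WL and 94.8, 146 and 146 FPKM in Las_ML. The cryptochrome gene LOC111921254, which encodes a blue light receptor, had 49.5, 101 and 99.6 FPKM in Las_WL and 117, 125 and 107 FPKM in Las_ML, and the groups did not overlap. None of the 7 photoreceptor genes was past the unadjusted threshold, a list too short for that count to be informative. The catalase locus LOC111878431 and LOC111878432, whose enzyme breaks down hydrogen peroxide from photorespiration, had 453, 947 and 1476 FPKM in Las_WL and 1711, 1439 and 1522 FPKM in Las_ML, with overlapping groups. The beta-1,3-glucanase gene LOC111899382, a cell wall and defence enzyme, spanned the widest range, at 0.232, 1332 and 1081 FPKM in Las_WL and 378, 1252 and 671 FPKM in Las_ML, so its log2 fold change was -2.50 with all libraries and 0.81 without Las_WL replicate 1. Heat shock protein 70 (LOC111902198) had 888, 746 and 690.5 FPKM in Las_WL and 579.6, 711 and 669 FPKM in Las_ML, with overlapping groups. The 289 pentatricopeptide repeat genes, which process organelle RNA, and the 122 ascorbate genes had 0 members past the unadjusted threshold, against 0.209% higher and 1.88% lower of all genes tested.

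Back-spliced reads, which mark circular RNAs, numbered 398, 704 and 558 in the Las_WL libraries and 1036, 863 and 747 in the Las_ML libraries. The 32 circular RNAs whose parental gene was lower past the unadjusted threshold, 22 of them detected, had 3, 4 and 5 reads in Las_WL and 18, 8 and 7 reads in Las_ML. These counts were not scaled to the size of the library, and the reads of all circular RNAs were also fewer in Las_WL, so a parallel with the parental genes cannot be read from them. None of the 1650 circular RNAs was matched to a parental gene among the 54 higher ones. The match was by gene name, so higher loci without a name, such as MSTRG.20536, could not be matched. Single circular RNAs were not compared here.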

How the data were processed

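RNA-seq of leaf libraries was analysed from the FPKM table that the authors deposited, 1 value per locus and library. Per the methods, reads were mapped to the Lsat_Salinas_v7 genome. The submitters' processing notes also name Bowtie 0.12.2, HISAT2 2.0 and StringTie 1.3.0, and give the build as mm8, a mouse build that does not match the lettuce gene names of the table. The labels give poly(A) selection, the methods ribosomal RNA depletion with RNase R, and which of these applies to the FPKM values could not be settled. Whether counting used strand is not given in the sources used here, so antisense or overlapping genes may share reads. The table gives no read counts behind the FPKM values, and the read totals that the study lists per library were not used here. Back-spliced read counts deposited by the authors were summed by parental gene without a test.

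Values were transformed to log2(FPKM + 1), so fold changes of weakly expressed genes are understated, and genes with a mean FPKM below 0.5 over the 6 libraries were left out. Las_WL and Las_ML were compared with limma 3.58.1 (trended moderation, two-sided, no replicate term) in R 4.3.3, with Benjamini-Hochberg adjustment over all 25853 genes, and the procedure was tested on simulated data. The threshold was an adjusted p under 0.05 with a log2 fold change of 1 or more in size. The unadjusted threshold follows the study. The p-values measure the spread between these replicates only. Exact permutation of 3 against 3 libraries cannot go below 0.1 and was not used.

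The 34 gene lists were built from words of the description or from KEGG terms, and GO terms were counted separately. Genes were named by rule: up to 10 called genes per direction with groups that did not overlap, filled to 5 with the smallest unadjusted p where fewer were called, the most abundant member of each list, and any called light-harvesting gene. Others are marked as chosen after their values were seen. The comparison, members and lists were chosen with earlier results of these data known. FPKM sums per library were 781623 to 813150 in Las_WL and 736187 to 763138 in Las_ML. Filters, pseudocount, scaling, library weights, a replicate block and left-out libraries were varied.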

Additional observations from a re-analysis of the deposited data

How the results depend on the processing

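With all 6 libraries, 0 genes were called, and 54 higher and 485 lower genes were past the unadjusted threshold, 539 in all. Without a filter on low values 1 gene was called. With a mean of at least 5 FPKM the unadjusted threshold was passed by 31 higher and 302 lower genes. With a pseudocount of 0.1, 2 genes were called and 104 higher and 993 lower genes were past the unadjusted threshold. Quantile normalization gave 1 called gene with 84 higher and 258 lower, and rescaling without the 10 most abundant genes gave 1 called gene. Weighting the libraries gave 361 called genes, with 155 higher and 829 lower past the unadjusted threshold. Leaving out 1 library at a time gave 0 to 8 called genes, 39 to 134 higher and 303 to 803 lower. The 8 calls came without Las_WL replicate 1, which also gave the 134 higher genes, the 803 lower genes came without Las_WL replicate 3, and the 303 without Las_ML replicate 1. The cause was not tested. The lists of terpene synthases and NB-ARC receptors had no member left at 5 FPKM. With all 9 libraries in the fit 0 genes were called.

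The fit with a replicate block also called 0 genes, with 54 higher and 429 lower past the unadjusted threshold. The deviations of same-numbered libraries from their group means correlated at -0.46, 0.0201 and -0.516. In such small groups the deviations are not independent of each other, and a Las_WL library stood apart from the rest. Whether same-numbered libraries were paired therefore cannot be decided from these correlations.

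The medians of 32 of the 34 gene lists were below 0. Quantile normalization changed the sign of 18 of the 34, rescaling that of 4, a mean of at least 5 FPKM that of 4 of 32, and library weights that of 2. Leaving out Las_WL replicate 2, Las_WL replicate 3 or Las_ML replicate 3 changed the sign of 7 each, and leaving out any of the other libraries that of 2 each. No named gene past the unadjusted threshold reversed under quantile normalization, under rescaling or without Las_WL replicate 1.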

Other observations

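Gene families that share a description, chosen after their values were seen, were also counted. There were 207 descriptions carried by at least 10 tested genes. Among the 22 Bet v I domain proteins, a family of small ligand-binding proteins that includes pathogenesis-related proteins, 6 were lower past the unadjusted threshold (27.3%, against 1.88% of all genes tested) and the median log2 fold change was -0.97. The most abundant of these 6, LOC111906355, had 24.8, 18.7 and 23.3 FPKM in Las_WL and 113, 51.1 and 65.9 FPKM in Las_ML, and all 6 had groups that did not overlap. Glutaredoxins, small thiol oxidoreductases, had 6 lower of 38 genes (15.8%) with a median of -0.28. LOC111892587 of this family had 3.96, 3.48 and 11.2 FPKM in Las_WL and 43.4, 24.7 and 30.1 FPKM in Las_ML. Heavy metal-associated domain proteins had 4 lower of 26 (15.4%) and genes described as senescence regulators 2 of 12 (16.7%). In these 4 families no member was higher past the unadjusted threshold. Of the 13 lateral organ boundaries domain genes, 2 were higher (15.4%, against 0.209% of all genes tested) and 0 were lower. Their median log2 fold change was 0.13 with all libraries and -0.31 without Las_WL replicate 1, against -0.13 and -0.26 for all genes tested.

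Several single genes with large differences belonged to none of the pathways described. A carbohydrate oxidase gene, LOC111912378, had 59.3, 55.0 and 115 FPKM in Las_WL and 391, 427 and 359 FPKM in Las_ML, a log2 fold change of -2.42 (SE 0.33, limma adjusted p = 0.373). The legumain-type peptidase gene LOC111877663, of a family of vacuolar processing proteases, had 6.07, 6.63 and 21.5 FPKM in Las_WL and 62.4, 56.2 and 85.5 FPKM in Las_ML. On the other side, polyphenol oxidase LOC111912456, an enzyme of tissue browning, had 20.2, 1.81 and 12.4 FPKM in Las_WL and 0.136, 0.346 and 0.743 FPKM in Las_ML, a log2 fold change of 2.74 (SE 0.74, limma adjusted p = 0.448). The groups did not overlap in any of these 3 genes.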
